A study of Mus musculus with 24 samples.

Results

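Nuclear receptor genes were examined in 4 organs of young and aged mice. The group was defined by name, from the thyroid hormone receptors to the receptors without a DNA-binding domain, and its 41 genes were matched to the array through the RefSeq accession of each probe. Of these, 40 were found on the array, by 70 of 56605 probes that are not controls, and no probe was matched to Rorb. The array as a whole named 22911 gene symbols. For a gene with several probes the brightest probe over all 24 arrays was used, and the other probes were compared with it.

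Nuclear receptors are transcription factors that bind small lipid-soluble ligands such as steroid hormones, thyroid hormone, retinoic acid, vitamin D, bile acids and fatty acids. Steroid receptors pair with themselves, whereas many receptors for metabolic ligands pair with a retinoid X receptor and bind repeats of the hexamer AGGTCA. Coactivators and corepressors recruited by the receptor set the direction of transcription. In liver, kidney and adipose tissue these receptors are known for control of lipid, bile acid, drug, mineral and energy metabolism.

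RNA of lung, kidney, liver and white adipose tissue (WAT) was hybridised to single-colour Agilent mouse arrays. All mice were C57BL/6J males without any further treatment in the labels, at 10 weeks (10W, young) or 90 weeks (90W, aged), with 3 samples per tissue and age. The samples come from male mice of a single inbred strain, and the labels do not say whether different tissues were taken from the same mouse. The aged livers are numbered 1, 2 and 4.

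Levels are log2 of the processed signal minus the 75th percentile of each array, so a level of 0 is the 75th percentile of all probes. The signal at that percentile ranged from 259 to 956 over the 24 arrays, and 58.6% to 71.1% of the probes were well above background, by the scanner's own measure. Arrays of the same group correlated with r between 0.942 and 0.995 over all probes. A gene was called higher or lower where limma gave a Benjamini-Hochberg adjusted p under 0.05 over all genes tested in that tissue. With 3 samples against 3, an exact permutation test of a single gene cannot go below p = 0.1, so calls rest on limma's pooled estimate of the spread. Each tissue lay on its own slide and was scanned apart from the others, so tissue and slide cannot be told apart.

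The tissue labels were checked against marker genes of hepatocytes, lung epithelium, kidney tubule and white adipocytes. All 5 markers of the labelled tissue were well above background on every young array of that tissue, and their summed level was 11.04 to 11.97 in liver, 10.6 to 11.2 in lung, 8.94 to 10.4 in kidney and 9.22 to 10.2 in WAT. Some libraries also held markers of another organ. Young WAT replicate 1 had a summed level of 9.66 for 6 testis and epididymis markers, against -4.22 to 0.88 in the other 5 WAT samples. Aged lung replicate 1 had a summed level of 7.66 for 5 hepatocyte markers, against 2.25 to 3.13 in the other 5 lungs. The members that moved with these libraries are given below with values per sample. In tissue RNA, fewer cells of a type and less RNA per cell cannot be told apart.

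For 38 of the 41 genes RefSeq promoter windows of 300 bases were at hand, from 250 bases before to 50 bases after a transcription start in GRCm38.p6. The AGGTCA hexamer, read on both strands, stood in the windows of 10 of these 38 genes (26.3%), and in 18.1% of 27025 genes with a window. The GC box GGGCGG, on both strands, stood in 21 of 38 genes (55.3%) against 38.2% of all genes. The TATAAA box, on both strands, stood in 8 of 38 (21.1%) against 15.7%. These shares count a gene if any of its windows held the motif. The 38 genes had 59 windows and the 27025 genes had 32851, so the members had more windows per gene and more chances of a match. Of all 32851 windows, 16.3% held AGGTCA, 35.7% GGGCGG and 13.6% TATAAA. The shares per gene were not corrected for the number of windows. The letters of AGGTCA and GGGCGG cannot overlap each other, and a match describes letters, not a binding site. Windows are shown for 3 receptors whose age change differed most between tissues, with the GC box in capitals. They are also shown for 3 of the receptors that were called in aged kidney and hold the AGGTCA hexamer, with that hexamer in capitals. Rarg and Rxra were called in aged kidney and hold the hexamer too, and their windows are not shown. Capitals reading CCGCCC or TGACCT are the same motifs on the opposite strand. The windows run 5′ to 3′ on the strand of the gene and lie at chr15:97908247-97908546 (minus strand) for Vdr, chr13:78198824-78199123 (minus) for Nr2f1, chr19:6921759-6922058 (minus) for Esrra, chr14:17660710-17661009 (plus) for Thrb, chr10:89506609-89506908 (minus) for Nr1h4, and chr6:115360894-115361193 (plus, window A) and chr6:115362099-115362398 (plus, window B) for Pparg.
Vdr: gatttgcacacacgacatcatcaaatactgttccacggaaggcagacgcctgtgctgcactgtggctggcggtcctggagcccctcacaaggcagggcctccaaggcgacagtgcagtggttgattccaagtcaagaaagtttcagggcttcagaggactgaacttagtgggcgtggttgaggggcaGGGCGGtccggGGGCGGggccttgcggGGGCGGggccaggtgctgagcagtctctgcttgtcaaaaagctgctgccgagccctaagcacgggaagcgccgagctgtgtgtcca
Nr2f1: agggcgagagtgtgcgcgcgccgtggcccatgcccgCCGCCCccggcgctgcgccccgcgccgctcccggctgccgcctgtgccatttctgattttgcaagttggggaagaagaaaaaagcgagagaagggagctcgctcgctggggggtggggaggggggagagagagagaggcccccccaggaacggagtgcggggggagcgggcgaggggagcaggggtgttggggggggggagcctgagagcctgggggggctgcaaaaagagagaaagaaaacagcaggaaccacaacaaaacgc
Esrra: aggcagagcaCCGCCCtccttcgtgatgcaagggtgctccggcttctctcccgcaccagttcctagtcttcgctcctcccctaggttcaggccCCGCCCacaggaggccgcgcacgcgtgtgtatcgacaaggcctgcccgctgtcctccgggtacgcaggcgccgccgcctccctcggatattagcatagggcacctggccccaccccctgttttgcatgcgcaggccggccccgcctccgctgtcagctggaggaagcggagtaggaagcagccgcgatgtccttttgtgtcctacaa
Thrb: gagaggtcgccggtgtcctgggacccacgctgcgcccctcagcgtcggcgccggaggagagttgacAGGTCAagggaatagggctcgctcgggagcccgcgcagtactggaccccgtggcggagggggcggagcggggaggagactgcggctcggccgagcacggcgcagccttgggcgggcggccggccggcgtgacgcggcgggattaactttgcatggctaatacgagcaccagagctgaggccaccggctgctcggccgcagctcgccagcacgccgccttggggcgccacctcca
Nr1h4: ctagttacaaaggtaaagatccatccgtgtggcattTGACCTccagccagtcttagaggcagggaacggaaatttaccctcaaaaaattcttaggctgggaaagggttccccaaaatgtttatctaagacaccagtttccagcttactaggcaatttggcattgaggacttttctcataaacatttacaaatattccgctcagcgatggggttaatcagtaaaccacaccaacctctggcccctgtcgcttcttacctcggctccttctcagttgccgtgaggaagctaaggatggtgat
Pparg, window A: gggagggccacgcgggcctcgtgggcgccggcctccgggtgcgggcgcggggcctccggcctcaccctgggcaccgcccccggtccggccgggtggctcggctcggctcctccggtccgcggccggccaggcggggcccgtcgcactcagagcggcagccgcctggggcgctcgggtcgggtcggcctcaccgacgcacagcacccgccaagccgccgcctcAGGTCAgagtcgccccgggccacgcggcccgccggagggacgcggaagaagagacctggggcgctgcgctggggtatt
Pparg, window B: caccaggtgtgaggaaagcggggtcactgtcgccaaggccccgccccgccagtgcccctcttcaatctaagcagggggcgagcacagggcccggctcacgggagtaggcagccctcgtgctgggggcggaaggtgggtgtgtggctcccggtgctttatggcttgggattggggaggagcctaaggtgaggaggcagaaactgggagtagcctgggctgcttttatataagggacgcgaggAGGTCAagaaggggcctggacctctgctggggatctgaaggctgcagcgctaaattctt

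The vitamin D receptor gene Vdr held 3 GC boxes, all in the strand of the gene, while Nr2f1 held 1 and Esrra held 2, all in the reverse orientation. Among the hexamer windows Thrb and both printed windows of Pparg carried 1 match in the forward orientation, and the farnesoid X receptor gene Nr1h4 carried 1 in reverse. A further window of Thrb and a further window of Pparg held no hexamer, and a further window of Nr2f1 held no GC box. The GC content of the windows ran from 45.7% in Nr1h4 to 80.3% in window A of Pparg.

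Of the 40 genes measured, 31 were well above background on all 24 arrays. Nr2e3, a receptor of photoreceptor cells, was well above background on no array, and the adrenal and gonadal factor Nr0b1 on 2. Pgr, the progesterone receptor, passed on 10 arrays, Nr0b2 on 12, Nr1i2 on 18, Hnf4a on 20, Vdr on 21 and both Hnf4g and Nr5a2 on 23. Nr2e3 and Nr0b1 were therefore tested for age in no tissue.

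At 10 weeks each tissue had receptors that stood far above their level in the other tissues. In WAT this was Pparg, the driver of adipocyte differentiation, at 5.26 ± 0.72 (SD, n = 3), against 2.02 ± 0.26 in liver, 1.98 ± 0.15 in lung and -0.82 ± 0.11 in kidney. Liver and lung did not differ in Pparg (difference 0.04 ± 0.26 SE, adjusted p = 0.89 by limma).

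In liver the drug-sensing receptors led. Nr1i2, the pregnane X receptor, stood at 3.59 ± 0.18 in young liver and -1.95 ± 0.18 in young kidney, then -4.25 ± 0.41 in lung, and was not well above background in WAT. Nr1i3, the constitutive androstane receptor, stood at 2.62 ± 0.29 in liver and between -3.91 and -3.36 in the other tissues, whose neighbours in that order did not differ beyond their spread (adjusted p = 0.54 and 0.39). The liver receptor homologue Nr5a2 stood at 3.02 ± 0.06 in liver and -3.13 ± 0.45 in WAT, and lung and kidney, lower still, were not told apart (adjusted p = 0.19). Nr0b2, the small heterodimer partner that curbs bile acid synthesis, stood at 1.101 ± 1.11 in liver and -3.56 ± 0.39 in kidney. It was not well above background on any young lung or WAT array.

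In kidney the vitamin D receptor and a pair of estrogen-related receptors led. Vdr stood at 4.37 ± 0.10 in young kidney, -0.70 ± 0.16 in lung, -3.25 ± 0.46 in WAT, and was not well above background in young liver. Esrrb stood at 2.81 ± 0.35 in kidney and -1.70 ± 0.55 in liver, while lung and WAT, below liver, did not differ from each other (adjusted p = 0.083). Esrrg stood at 2.66 ± 0.14 in kidney and between -2.86 and -2.04 in the other 3 tissues, where neighbours did not differ (adjusted p = 0.94 and 0.42).

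In lung the leads were smaller. Pgr stood at -3.48 ± 0.11 in lung and -5.54 ± 0.38 in kidney, where it was well above background on 1 of 3 young arrays. Nr4a3, an immediate early orphan receptor, stood at 0.94 ± 0.05 in lung and -1.09 ± 0.09 in liver, and liver and kidney were not told apart (adjusted p = 0.054). These 10 genes were picked for leads of at least 2 on the log2 scale, so their order is a description.

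**Figure D1:**
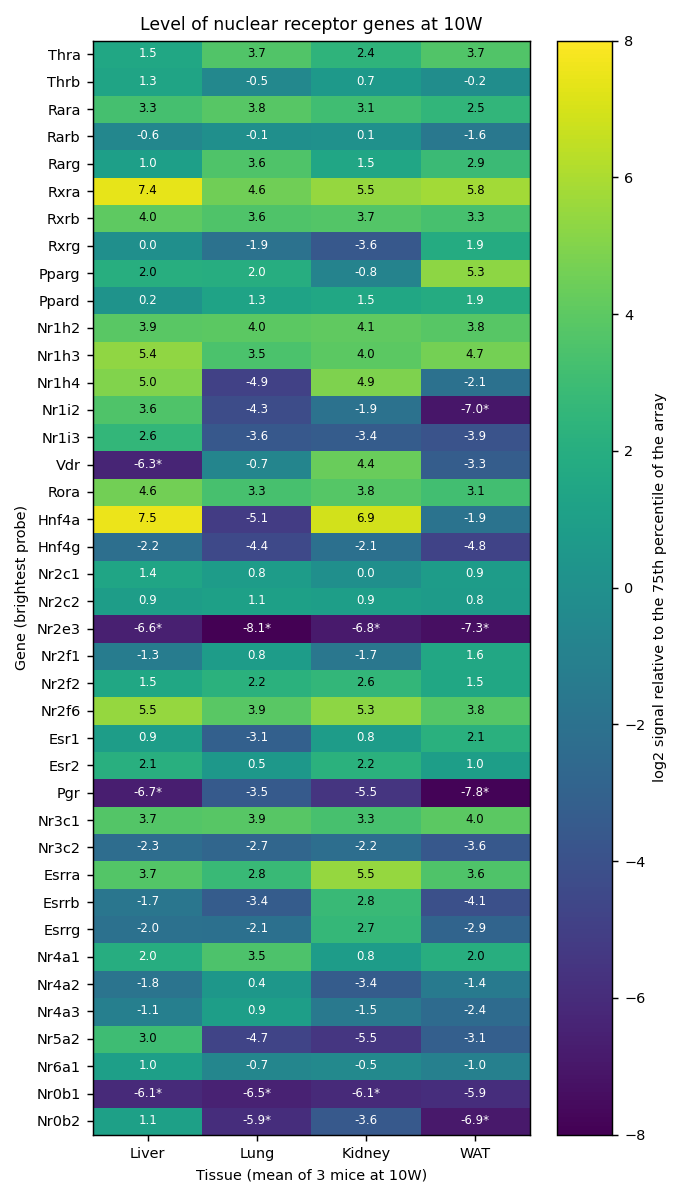
Level of 40 nuclear receptor genes in the 4 tissues at 10 weeks, as the mean of 3 samples of log2 signal minus the 75th percentile of each array; asterisks mark groups with no array well above background. Pparg is brightest in WAT, Nr1i2, Nr1i3, Nr5a2 and Nr0b2 in liver, and Vdr, Esrrb and Esrrg in kidney. Colours compare tissues within a gene and not genes with each other.

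Over all 6 pairs of tissues at 10 weeks, with 38 of the genes tested, the called members numbered 32 between kidney and WAT (84.2%, against 56.7% of all genes tested), 31 between liver and lung (81.6%, against 74.1%) and 30 between liver and WAT (78.9%, against 68.2%). Lung and kidney differed in 27 members (71.1%, against 64.6%). Liver and kidney, and lung and WAT, differed in 22 members each (57.9%, against 56.8% and 54.0%). Kidney was above WAT in 21 of its 32 called members. All 6 shares lay above that of all genes, by the smallest margin between liver and kidney.

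With age, kidney changed most. In aged kidney 8 of 38 tested members were called higher (21.1%, against 20.7% of all genes tested) and 18 lower (47.4%, against 42.5%). In aged liver 3 of 37 members were higher (8.11%, against 10.6%) and 4 lower (10.8%, against 16.8%). The higher ones include Vdr, which was tested in liver only because of its aged arrays. In aged lung no member of 37 was higher, against 2.7% of all genes, and 3 were lower (8.11%, against 2.86%). In aged WAT no member of 35 was called in either direction, against 1.99% higher and 0.566% lower of all genes. In kidney and liver these shares lay near the background, and in lung the difference rests on 3 genes.

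The median log2 change of the members was -0.28 in kidney (all genes -0.23), -0.15 in liver (all genes -0.20), -0.12 in lung (all genes -0.08) and -0.00 in WAT (all genes -0.05). Scaling each array to its spike-in spots instead moved the median of all genes to 0.16 in kidney, -0.09 in liver, -0.18 in lung and -0.05 in WAT. In kidney that scaling left 8 members called lower and 11 higher. It also turned the split of all genes in kidney from 6510 higher and 13374 lower to 9280 higher and 4375 lower, and in liver from 2947 higher and 4685 lower to 2538 higher and 966 lower. For each gene below it is said where a call ended under that scaling. In kidney it raised the change of every member by the same amount, so there it was a check on lower calls and little check on higher ones.

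**Figure D2:**
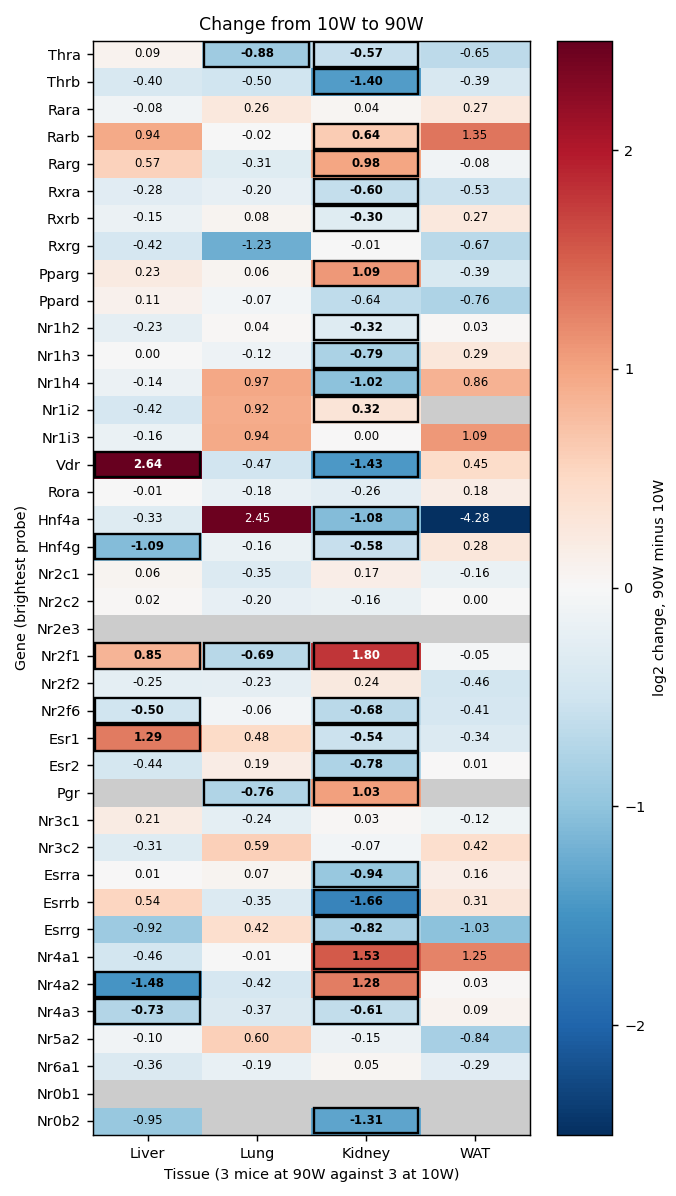
Log2 change from 10 to 90 weeks of each nuclear receptor gene in each tissue, 3 samples against 3; the colour scale ends at -2.5 and 2.5, grey marks genes not tested, and marked cells passed the test. Kidney holds 26 of the 36 calls, and WAT none; with spike-in scaling 10 of the 18 lower calls in kidney end.

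Among the hormone receptors that act with retinoid X receptors, the thyroid hormone receptor gene Thrb fell in aged kidney. Its level was 0.63, 0.67 and 0.68 in the 3 young kidneys and -0.96, -0.76 and -0.50 in the 3 aged ones. The groups were far apart and each was tight. The fall was 1.40 on the log2 scale with an SE of 0.13 (adjusted p = 0.000363), and the call was kept with spike-in scaling. In the other tissues the change of Thrb was -0.40 in liver, -0.50 in lung and -0.39 in WAT, none past the threshold (adjusted p = 0.18, 0.067 and 0.65).

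Thra, the other thyroid hormone receptor, was 3.73, 3.64 and 3.64 in young lung and 2.85, 3.05 and 2.47 in aged lung. No aged lung reached the lowest young one. The fall was 0.88 on the log2 scale (SE 0.16, adjusted p = 0.0384). The call ended when any of the young lungs was left out or when aged lung replicate 1, the library with hepatocyte markers, was left out. Over all alternatives the change was -1.01 to -0.72, with adjusted p up to 0.154. Leaving out a young lung ended most calls of all lung genes. The share called lower was 2.86% with all samples and 0.0033%, 0.0264% and 0.241% without young replicate 1, 2 and 3. Without aged lung replicate 1 that share was 2.97%. All 3 probes of Thra were lower in aged lung and in aged kidney. In kidney the change was -0.57 ± 0.15 SE (adjusted p = 0.0161), which ended with spike-in scaling and without aged kidney replicate 2.

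Of the 3 retinoic acid receptors, 2 were higher in aged kidney. Rarg was 1.53, 1.24 and 1.60 in young kidney and 2.77, 2.39 and 2.15 in aged kidney, a rise of 0.98 (SE 0.18, adjusted p = 0.00445), and Rarb rose by 0.64 (SE 0.17, adjusted p = 0.0186), a call that ended without young kidney replicate 2 or 3 or aged kidney replicate 2. Rara changed by 0.04 there (adjusted p = 0.81). Another probe of Rarb, far dimmer than the brightest, moved by -0.92 in kidney, so the probes of this gene disagree. Outside kidney Rarb changed by 0.94 in liver and 1.35 in WAT, neither past the threshold (adjusted p = 0.051 and 0.12).

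The retinoid X receptors are the shared partners of the metabolic receptors. Rxra fell by 0.60 in aged kidney (SE 0.08, adjusted p = 0.00147) and Rxrb by 0.30 (SE 0.07, adjusted p = 0.0123). Neither was called with spike-in scaling, under which Rxrb changed by 0.09, in the opposite direction. Rxrg changed by -0.01 in kidney, and by -1.23 in lung with young values from -2.97 to -1.23 that overlapped the aged ones (adjusted p = 0.18).

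Vdr fell in aged kidney, and in liver it was well above background in the aged samples only. In kidney it was 4.37, 4.48 and 4.27 at 10 weeks and 2.75, 2.99 and 3.09 at 90 weeks, with no overlap. The fall was 1.43 on the log2 scale (SE 0.12, adjusted p = 0.000267), and the call held with spike-in scaling. In liver the probe was not well above background on any of the 3 young arrays, at -5.89, -6.46 and -6.60, and was well above background on all 3 aged ones, at -2.62, -4.34 and -4.07. It was tested in liver only because of the aged arrays, so the liver p-value rests on young values near background. On these processed signals aged liver was at least 1.96-fold higher than young liver, against the lowest signal well above background on the young arrays, from means of -6.32 and -3.68 and an adjusted p of 0.0104. That bound does not carry over to normexp background correction, with which the liver change was 0.65 on the log2 scale, a smaller difference, and the call ended (adjusted p = 0.083). The call also ended with the methods' t-test. In lung and WAT Vdr changed by -0.47 and 0.45 (adjusted p = 0.098 and 0.48).

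The peroxisome proliferator-activated receptor gene Pparg rose in aged kidney, where it was dimmest in the young. It was -0.91, -0.85 and -0.71 in young kidney and 0.45, 0.25 and 0.08 in aged kidney, a rise of 1.09 (SE 0.12, adjusted p = 0.000644) that was also called with spike-in scaling. In its main tissue, WAT, it was 4.44, 5.55 and 5.79 at 10 weeks and 4.79, 4.98 and 4.84 at 90 weeks. Young WAT replicate 1, the library with epididymis markers, lay below all aged samples and the other young ones above them, and the change of -0.39 was not called (adjusted p = 0.6). Ppard, its relative with broad expression, changed by -0.64 in kidney and -0.76 in WAT, neither past the threshold (adjusted p = 0.054 and 0.096).

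The oxysterol and bile acid receptors fell in aged kidney. Nr1h3, the liver X receptor alpha, was 4.03, 3.88 and 3.99 in young kidney and 3.16, 3.15 and 3.21 in aged kidney, against levels of 5.27 to 5.45 in all 6 livers. The kidney fall was 0.79 on the log2 scale (SE 0.08, adjusted p = 0.000462) and the liver change was -0.00. The kidney call of Nr1h3, and that of the liver X receptor beta Nr1h2 (-0.32 ± 0.07 SE, adjusted p = 0.00719), ended with spike-in scaling, under which Nr1h2 changed by 0.07. The farnesoid X receptor Nr1h4 fell by 1.02 in kidney (SE 0.23, adjusted p = 0.00979), and with that scaling its change was -0.63 (adjusted p = 0.0173). It changed by -0.14 in liver (adjusted p = 0.63). In lung Nr1h4 was -1.23 in aged replicate 1, which held hepatocyte markers, and between -5.43 and -4.27 in the other 5.

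The xenobiotic receptors were not called with age in liver, where they were brightest. There Nr1i2 changed by -0.42 (adjusted p = 0.21) and Nr1i3 by -0.16 (adjusted p = 0.59). Nr1i2 was called higher in kidney, by 0.32 (SE 0.11, adjusted p = 0.0446), a call that was kept in 1 of 6 fits that left out a sample. Nr1i3 changed by 0.94 in lung (adjusted p = 0.051) and was called higher there with spike-in scaling. The change of Nr1i2 in lung was 0.92 (adjusted p = 0.11). Aged lung replicate 1 held hepatocyte markers, and the part of these markers in both lung changes was not tested.

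Hnf4a, a regulator of hepatocyte and proximal tubule genes, was 6.90, 7.03 and 6.85 in young kidney and 5.69, 5.83 and 6.02 in aged kidney. The fall of 1.08 on the log2 scale (SE 0.11, adjusted p = 0.000524) was smaller with spike-in scaling, with a change of -0.69, and still called, while in liver the change was -0.33 (adjusted p = 0.33). Hnf4a followed the libraries with markers of another organ. It was 0.98 in young WAT replicate 1 and -5.84 to -0.83 in the other young WAT samples, and 0.78 in aged lung replicate 1 against -4.61 and -4.21 in the other aged lungs.

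Hnf4g, its paralog, was -2.34, -1.92 and -2.26 in young liver and -3.36, -3.21 and -3.20 in aged liver, with each aged value below each young one. The fall was 1.09 on the log2 scale (SE 0.17, adjusted p = 0.0083). In kidney it went from -1.90, -2.29 and -2.17 to -2.95, -2.66 and -2.49, a fall of 0.58 (SE 0.16, adjusted p = 0.0186). In lung and WAT the changes were -0.16 and 0.28 (adjusted p = 0.69 and 0.53). The liver and kidney calls both ended with spike-in scaling, and the kidney call also without young kidney replicate 1. The circadian receptor Rora was called in no tissue.

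The COUP-TF gene Nr2f1, which acts in development and vascular and stromal cells, changed in 3 tissues. It rose in kidney from -1.43, -1.75 and -1.81 to 0.45, 0.15 and -0.20, and in liver from -1.28, -1.28 and -1.34 to -0.45, -0.58 and -0.32. It fell in lung from 0.91, 0.90 and 0.70 to 0.21, 0.04 and 0.19. In each of these tissues every aged sample lay on the same side of every young one, whereas in WAT the samples ranged from 0.93 to 2.02 in the young and from 1.33 to 1.74 in the aged. The changes were 1.80 in kidney (SE 0.19, adjusted p = 0.000573), 0.85 in liver (SE 0.15, adjusted p = 0.011), -0.69 in lung (SE 0.10, adjusted p = 0.0251) and -0.05 in WAT (adjusted p = 0.95). The kidney call held with spike-in scaling and those in liver and lung ended. The lung call also ended without any of the young lungs or aged lung replicate 3. Of all lung genes 2.86% were lower with all samples, at most 0.241% without a young lung and 1.61% without aged lung replicate 3.

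Nr2f2, the second COUP-TF, changed by 0.24 in kidney (adjusted p = 0.097) and was called higher there with spike-in scaling. Nr2f6 fell by 0.68 in kidney (SE 0.10, adjusted p = 0.002) and by 0.50 in liver (SE 0.15, adjusted p = 0.0475). Both calls ended with spike-in scaling, and the liver call was kept in none of the 6 fits that left out a sample. The testicular receptors Nr2c1 and Nr2c2, repressors of broad expression, were called in no tissue, with changes between -0.35 and 0.17; Nr2c1 was called higher in kidney with spike-in scaling.

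Among steroid receptors the estrogen receptor gene Esr1 rose in aged liver and fell in aged kidney. In liver it was 1.39, 1.03 and 0.30 at 10 weeks and 1.84, 2.48 and 2.29 at 90 weeks. Every aged liver was above every young one. The rise was 1.29 (SE 0.31, adjusted p = 0.0268), kept with spike-in scaling and lost without young liver replicate 2 or aged liver replicate 2 or 4. The call also ended with the replicate block and the methods' t-test. In kidney the values went from 0.76, 0.86 and 0.83 to 0.18, 0.31 and 0.33, a fall of 0.54 (SE 0.08, adjusted p = 0.00181) that ended with spike-in scaling. In lung they were -3.09, -2.89 and -3.26 against -2.41, -2.99 and -2.41, and in WAT 2.19, 2.28 and 1.98 against 1.49, 2.09 and 1.85, with overlap in both tissues (adjusted p = 0.19 and 0.43).

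Esr1 was the gene with the most probes, 6 in all, and they did not give a single picture. The second brightest probe moved with the brightest, by 1.55 in liver and -0.44 in kidney, and 2 dimmer probes changed by 1.27 and 0.46 in liver and by -0.50 and -0.96 in kidney. The dimmest changed by 1.80 in liver but was well above background on 1 of 3 aged livers and no young one. The remaining probe, which shares its accession with the brightest, behaved otherwise. It was -3.94 in young liver and -4.10 in aged liver, a change of -0.16, and it was the brightest Esr1 probe in lung, where it went from -2.22 to -2.74 and every aged value was below every young one. The lung change of Esr1 was thus 0.48 with the probe brightest over all arrays and -0.52 with the probe brightest in lung.

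**Figure D3:**
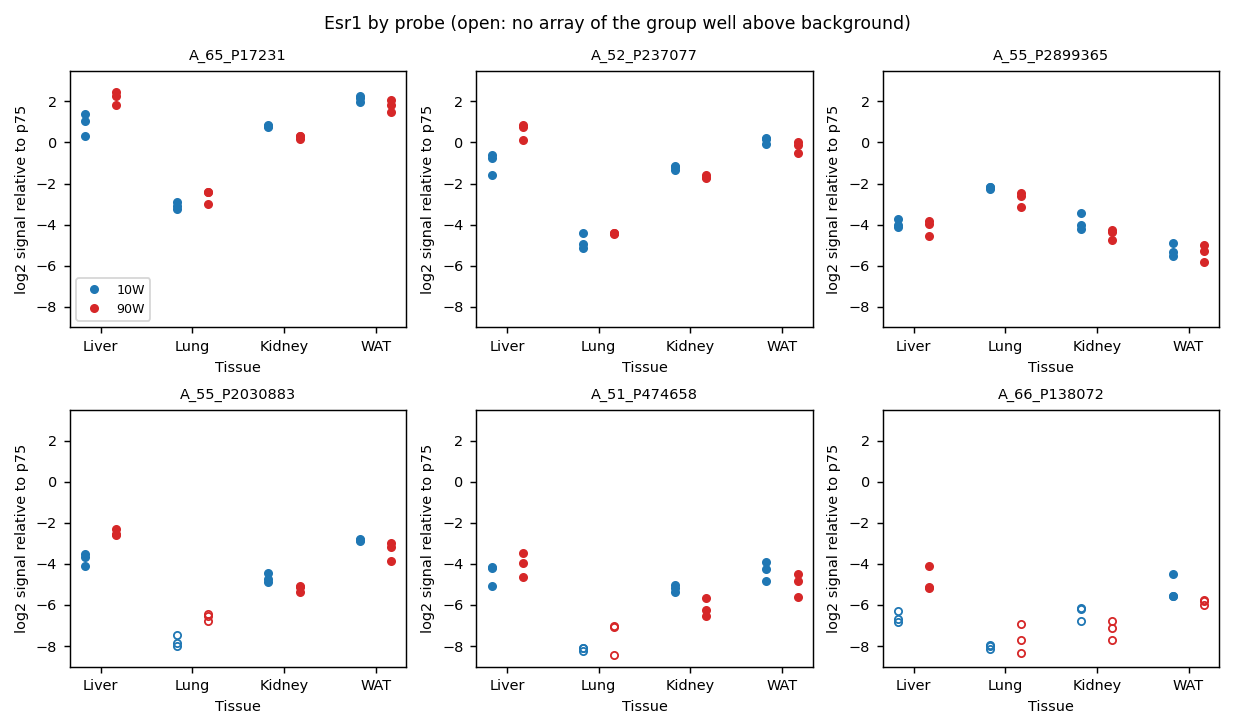
Levels of the 6 Esr1 probes by tissue and age, as log2 signal minus the 75th percentile of each array, with a point per sample. In liver the brightest probe goes from a mean of 0.91 to 2.20, while the probe that is brightest in lung is at -3.94 and -4.10 there and falls from -2.22 to -2.74 in lung.

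Esr2, the other estrogen receptor, fell by 0.78 in aged kidney (SE 0.11, adjusted p = 0.00137), which ended with spike-in scaling, and changed by -0.44 in liver (adjusted p = 0.097). Its 2 probes lay 8.09 apart on the log2 scale, with means of 1.32 and -6.77, and the values given are of the brighter one. Probes lay more than 4 apart in 9 other members too, namely Thra, Rarb, Rxra, Rxrb, Nr1h2, Rora, Hnf4a, Esr1 and Nr4a3. Pgr was -3.59, -3.36 and -3.50 in young lung and -4.36, -4.13 and -4.22 in aged lung. The groups did not overlap and the fall was 0.76 on the log2 scale (SE 0.11, adjusted p = 0.0235), with or without spike-in scaling. This call ended with normexp background correction, and without any of the young lungs or aged lung replicate 3. Leaving out these samples also cut the lower share of all lung genes, as given for Nr2f1. In kidney Pgr rose by 1.03 (SE 0.23, adjusted p = 0.00843). There 1 of 3 young arrays and all 3 aged ones were well above background, so Pgr was tested in kidney only because of its aged arrays. The kidney call ended with normexp and with the mean of its probes.

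The corticosteroid receptors were called in no tissue. The glucocorticoid receptor Nr3c1 changed by 0.21 in liver, -0.24 in lung, 0.03 in kidney and -0.12 in WAT. The mineralocorticoid receptor Nr3c2, which acts in the distal nephron, changed by -0.07 in kidney (SE 0.17, adjusted p = 0.73) and by 0.59 in lung (SE 0.12, adjusted p = 0.051).

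All 3 estrogen-related receptors, orphan receptors that drive mitochondrial and fatty acid oxidation genes, fell in aged kidney. Esrra was 5.42, 5.47 and 5.57 in young kidney and 4.37, 4.51 and 4.75 in aged kidney. Esrrb went from 2.72, 2.52 and 3.20 to 0.43, 1.26 and 1.78, and Esrrg from a mean of 2.66 to 1.84. In each gene all aged kidneys were below all young ones. The falls were 0.94 for Esrra (SE 0.12, adjusted p = 0.000945), 1.66 for Esrrb (SE 0.36, adjusted p = 0.00805) and 0.82 for Esrrg (SE 0.11, adjusted p = 0.00117), and all 3 were called with spike-in scaling too.

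Outside kidney no estrogen-related receptor was called. Esrra was 3.53 to 3.89 in young liver and 3.60 to 3.91 in aged liver, 2.76 to 2.89 and 2.87 to 2.97 in lung, and 3.41 to 3.73 and 3.60 to 3.87 in WAT. Esrrb ran from -2.20 to -1.11 in young liver and -1.59 to -0.84 in aged liver, from -3.82 to -2.95 and -4.26 to -3.23 in lung, and from -4.24 to -3.93 and -4.10 to -3.49 in WAT. Esrrg in WAT was -0.73 in young replicate 1 and between -5.28 and -2.72 in the other 5 samples.

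The NR4A receptors are immediate early genes whose transcripts rise within a short time of a stimulus. Nr4a1 was 0.58, 0.66 and 1.24 in young kidney and 2.25, 3.03 and 1.78 in aged kidney, a rise of 1.53 (SE 0.34, adjusted p = 0.00912). Nr4a2 went in kidney from -3.40, -3.15 and -3.56 to -2.01, -1.87 and -2.38, a rise of 1.28 (SE 0.17, adjusted p = 0.00117). Both genes were also called higher with spike-in scaling. Nr4a3 changed the other way there, by -0.61 (SE 0.11, adjusted p = 0.00457), a call that ended with spike-in scaling.

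In liver 2 of the 3 NR4A genes were lower. Nr4a2 went from -2.49, -1.11 and -1.87 to -3.84, -3.34 and -2.74, a fall of 1.48 on the log2 scale (SE 0.41, adjusted p = 0.038). That call was kept with spike-in scaling. It ended without young liver replicate 2 or 3 or aged liver replicate 1 or 2, and with quantile normalization, the probe brightest in liver, the mean of its probes, the replicate block and the methods' t-test. Nr4a3 went from -0.98, -1.12 and -1.16 to -1.74, -1.83 and -1.89, a fall of 0.73 (SE 0.15, adjusted p = 0.0156) that ended with spike-in scaling and without young liver replicate 1 or 2. Nr4a1 varied widely between young livers, from 0.91 to 2.86, and its change of -0.46 was not called (adjusted p = 0.49). In lung and WAT the NR4A genes were not called, and Nr4a1 ran from 2.46 to 4.33 in young lung and from 1.26 to 3.19 in young WAT.

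Of the remaining members, Nr0b2 was -3.36, -3.29 and -4.01 in young kidney and -5.14, -5.07 and -4.40 in aged kidney, a fall of 1.31 on the log2 scale (SE 0.27, adjusted p = 0.00664) kept with spike-in scaling. In liver, its main tissue, it ranged from 0.17 to 2.32 in the young and -0.95 to 1.01 in the aged, and the change of -0.95 was not called (adjusted p = 0.31). Nr5a2 changed by -0.10 in liver (adjusted p = 0.67), and in lung it was -2.44 in aged replicate 1 against -5.28 to -4.40 in the other 5. Nr6a1, the germ cell nuclear factor, was called in no tissue, and with spike-in scaling was called higher in kidney.

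**Figure D4:**
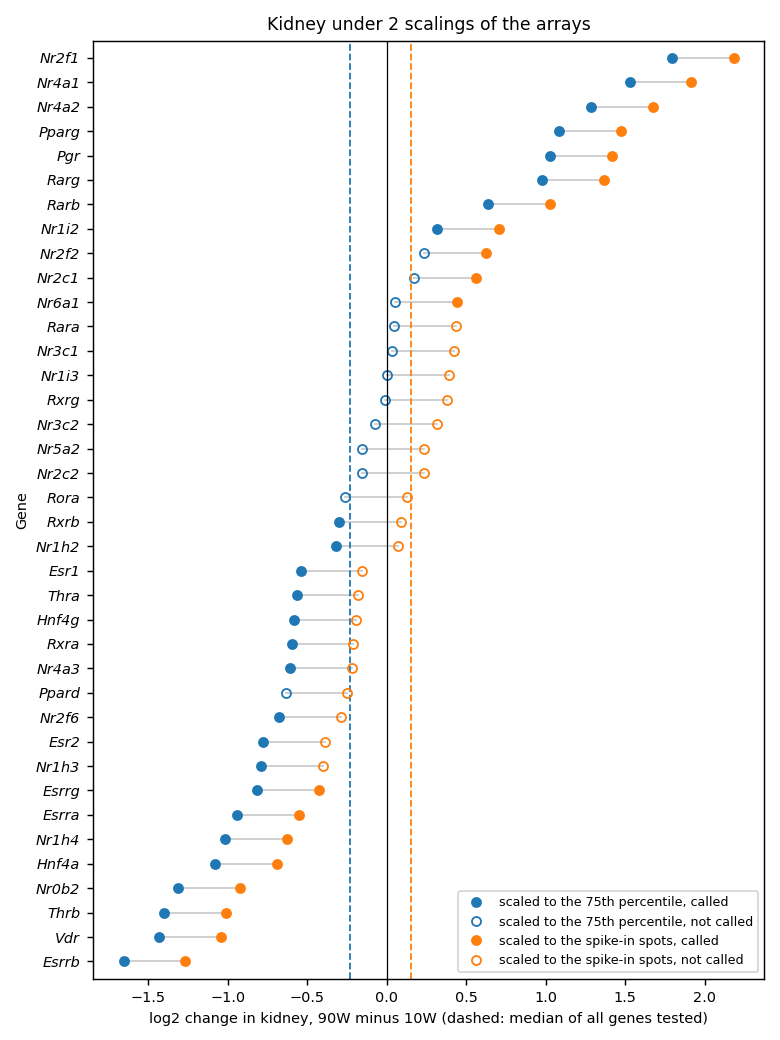
Log2 change with age of each nuclear receptor gene in kidney with each array scaled to its 75th percentile and with each array scaled to its spike-in spots. The shift of all genes between the scalings, from a median of -0.23 to 0.16, moves every member upward; 8 lower and 8 higher calls hold under both, 10 lower calls end, and Rxrb and Nr1h2 turn positive.

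Spike-in scaling, which moved every kidney change upward, ended some of the lower calls and none of the higher ones. Thrb, Nr1h4, Vdr, Hnf4a, Esrra, Esrrb, Esrrg and Nr0b2 were called lower under both scalings. Rarb, Rarg, Pparg, Nr1i2, Nr2f1, Pgr, Nr4a1 and Nr4a2 were called higher under both, which an upward shift of every change could hardly prevent. Of these, the calls of Rarb and Nr1i2 ended in some fits that left out a sample and with the methods' t-test. The call of Pgr ended with normexp and with the mean of its probes, and Pgr was tested in kidney only because of its aged arrays. Thra, Rxra, Rxrb, Nr1h2, Nr1h3, Hnf4g, Nr2f6, Esr1, Esr2 and Nr4a3 were lower only with the 75th percentile. Relative to the median of all genes, 18 members lay above it and 20 below it in kidney.

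Cell type markers moved in kidney beside these genes. The summed level of 5 tubule markers was 10.1 to 10.4 in young and 8.94 to 9.62 in aged kidney, with 4 of 5 called lower (3 with spike-in scaling). The summed level of 6 B and plasma cell markers was -0.32 to 0.10 in young and 5.62 to 6.37 in aged kidney, with all 6 called higher. Fibroblast markers went from between 3.96 and 4.19 to between 6.26 and 6.72 (5 of 5 higher), and macrophage markers from between 4.30 and 4.51 to between 5.89 and 6.54 (4 of 5 tested higher). White adipocyte markers ran from -0.83 to 0.28 in young and from -0.25 to 1.69 in aged kidney, with 3 of 5 called higher (Adipoq, Plin1 and Cidec) and 1 lower (Lep, not with spike-in scaling), beside the higher level of Pparg there. In liver, fibroblast markers (4 of 5) and macrophage markers (5 of 6) were also higher with age. Hepatocyte markers ran from 11.82 to 11.97 in young and from 11.04 to 11.50 in aged liver, with 3 of 5 called lower (1 with spike-in scaling), beside the lower levels of Hnf4g and Nr2f6. The part of these markers in the changes of the receptors was not tested.

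In lung the white adipocyte markers ran from 4.47 to 5.09 in the young and from 2.53 to 3.41 in the aged, with 3 of 5 called lower, and cardiac muscle markers from 5.96 to 7.65 and from 3.22 to 7.15, with none of 6 called. Fibroblast markers ran from 6.69 to 7.06 in young and from 5.37 to 6.00 in aged lung without overlap, and none of 5 was called. The part of these markers in the lower lung levels of Thra, Nr2f1 and Pgr was not tested.

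Whether the age change of a gene differed between tissues was asked by the F test of limma's tissue by age interaction over all 24 arrays. It passed for 13 of 35 members tested, which is near the 37.6% of all genes tested. The smallest adjusted p-values were 4.73e-05 for Vdr and 5.84e-05 for Nr2f1, followed by 0.000498 for Esrra and 0.00111 for Esr1, then 0.00229 for Nr4a2, 0.00582 for Hnf4g, 0.00691 for Esrrb and 0.00757 for Nr1h3.

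The p of Vdr rests in part on young livers, where it was not well above background, so no size is given for its differences from liver. Between tissues that measured it in both ages, the age change of Vdr in kidney was below that in WAT, by a difference of -1.88 (adjusted p = 0.00779). For Nr2f1 the change in lung was below that in kidney by 2.49 (adjusted p = 3.22e-05 for the difference of -2.49), and the change in liver exceeded that in lung by 1.54 (adjusted p = 0.00227). With spike-in scaling 8 members passed the F test, against 17.9% of all genes, and Esrra (adjusted p = 0.126), Nr1h3 (0.381), Ppard (0.172), Rxrb (0.642) and Esr2 (0.567) did not. With young WAT replicate 1 and aged lung replicate 1 left out, 21 members passed, against 44.1% of all genes.

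**Figure D5:**
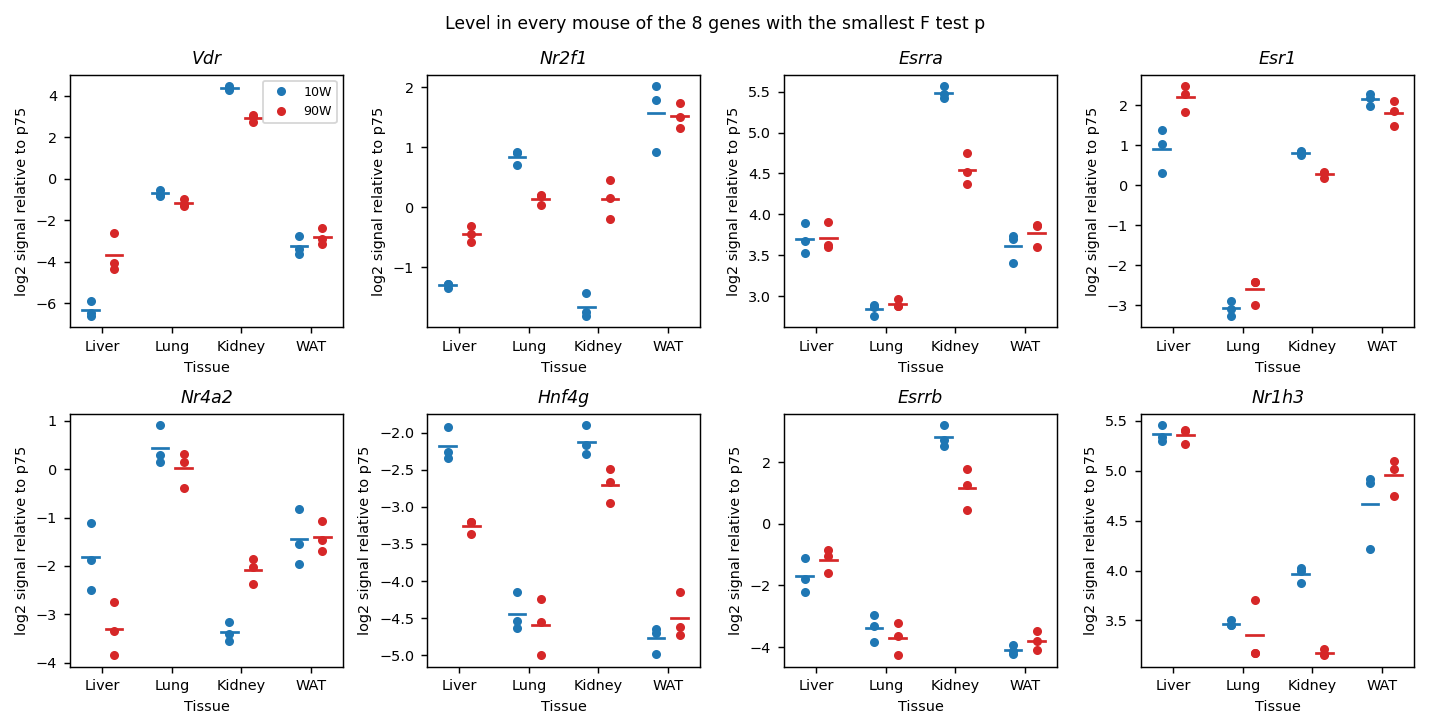
Levels per sample, as log2 signal minus the 75th percentile of each array, at 10 and 90 weeks in the 4 tissues for the 8 members with the smallest F test p. Vdr falls in kidney and is higher in aged liver, where no young sample was well above background. Nr2f1 rises in kidney and liver and falls in lung, and Esrra and Esrrb fall in kidney.

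Coregulators were examined beside the receptors. In kidney 3 of 16 coactivators tested were higher and 6 lower, and 4 of 11 corepressors were higher and 3 lower; with spike-in scaling these were 5 and 1, and 4 and 0. All genes in kidney were 20.7% higher and 42.5% lower, or 29.5% and 13.9% with spike-in scaling, and 18.8% of the coactivators were higher and 37.5% lower. In liver 3 of 16 coactivators were higher (18.8%, against 10.6% of all genes) and no corepressor was called. In lung and WAT no coregulator was called.

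Targets and ligand enzymes were taken from textbook lists of each receptor, and their counts are read beside the shares of all genes. These were 20.7% higher and 42.5% lower in kidney, 10.6% and 16.8% in liver, and 2.7% and 2.86% in lung. With spike-in scaling they were 29.5% and 13.9% in kidney, 9.11% and 3.47% in liver, and 1.88% and 1.91% in lung. All 9 tested targets on the list of the estrogen-related receptors were lower in aged kidney (8 with spike-in scaling). Esrra itself is on that list, and Perm1, a regulator of mitochondrial genes, fell by 4.005 on the log2 scale, the fatty acid oxidation enzyme Acadm by 1.71 and the respiratory chain subunit Sdhb by 1.19. In liver 4 of 8 tested targets on this list were lower, none with spike-in scaling, while no member of the family was called there.

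Of 10 vitamin D genes in kidney, 6 were lower (5 with spike-in scaling) and 2 higher. The calcium-binding proteins Calb1 and S100g, which carry calcium through distal tubule cells, fell by 2.58 and 1.78 on the log2 scale. Cyp27b1, the enzyme that makes the active hormone, rose by 2.03. Among 9 mineralocorticoid targets 8 were lower in kidney, with changes of -1.63 in the sodium-chloride cotransporter Slc12a3 and of -1.05 and -0.82 in the sodium channel subunits Scnn1a and Scnn1g; with spike-in scaling 2 were lower and 1 higher.

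Retinoid genes moved mostly up in kidney, with 8 of 13 higher and 4 lower (9 and 1 with spike-in scaling). The retinoic acid-forming enzymes Aldh1a2 and Aldh1a1 rose by 4.27 and 3.17 and the retinoic acid-degrading enzyme Cyp26a1 by 2.74. Immediate early genes other than the NR4A family were higher in kidney in 9 of 14 and lower in none (12 higher with spike-in scaling), among them Egr2 by 4.09, Fos by 3.30 and Egr3 by 3.16. In liver 3 of 13 were higher (7 with spike-in scaling), with Ier3 up by 3.44, while Nr4a2 and Nr4a3 were lower there.

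Targets of the lipid receptors went in both directions in kidney. Of 10 liver X receptor targets 4 were higher and 3 lower, with the phospholipid transfer protein Pltp up by 3.58, Apoe up by 2.03 and the desaturase Scd1 at -2.21. Of 10 Pparg targets 5 were higher and 4 lower, with the adipocyte proteins Cfd, Adipoq and Plin1 up by 5.00, 4.23 and 2.30; Adipoq and Plin1 are also among the white adipocyte markers. Of 8 farnesoid X receptor targets 1 was higher and 4 lower (1 with spike-in scaling), and of 8 Hnf4 targets 2 were higher and 5 lower, among them Apoc3 at -2.06.

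In lung 4 of 10 Pparg targets were lower (3 with spike-in scaling), with the lipid droplet protein Plin1 at -4.89, the adipokine Retn at -3.46 and the lipid droplet protein Cidec at -1.53, while Pparg itself changed by 0.06. Plin1, Retn and Cidec are also the 3 white adipocyte markers called lower in lung, so the 2 lists share these genes.

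For the hormone receptors, 4 of 10 glucocorticoid targets were higher in kidney and 2 lower (6 and 2 with spike-in scaling), with Lcn2, a secreted iron-binding protein, up by 5.82. Of 7 thyroid hormone targets 4 were lower and 2 higher under both scalings, with the deiodinase Dio1 at -1.79. Of 9 estrogen and progesterone targets 3 were higher and 4 lower, led by Greb1 at 4.32. Among 11 enzymes that make or clear steroid and thyroid ligands 9 were lower (5 with spike-in scaling), with the oxysterol hydroxylase Cyp7b1 at -2.64 and Hsd17b2, which inactivates estradiol, at -2.16. In liver 5 of 9 of these enzymes were lower (4 with spike-in scaling), with the steroid reductase Srd5a1 at -2.42.

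Targets of the drug-sensing receptors in liver showed 2 of 8 higher under both scalings, the cytochromes Cyp2b9 by 2.85 (adjusted p = 0.00587) and Cyp2b10 by 2.73 (adjusted p = 0.0152). Nr1i2 and Nr1i3 were not called in the same livers. In WAT the called genes on the lists of targets, enzymes, coregulators and immediate early genes were the liver X receptor target Abcg1, a cholesterol transporter, at 2.57, the clotting factor F7 at 4.07 and the thyroid hormone carrier Ttr at -4.63 from the Hnf4 list, and Fos at 3.58.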

How the data were processed

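Total RNA of liver, lung, kidney and WAT from young (10W) and aged (90W) C57BL/6J males was labelled with Cy3 and hybridised to Agilent mouse arrays, 3 samples per tissue and age. The authors deposited the scanner output of each array, and the intensity used here is the processed signal that Agilent Feature Extraction 11.0.1.1, per the labels, had corrected for background; no normalization between arrays had been applied. Log2 of this signal minus the 75th percentile of each array was computed, after control spots and outlier spots were left out and spots of a probe averaged. Probes were named through RefSeq accessions (58.3% had a symbol). A gene was tested in a tissue where 3 or more of its 6 arrays held the probe well above background, by limma 3.58.1 in R 4.3.3 (lmFit and eBayes, threshold of 0.05 after Benjamini-Hochberg adjustment). The p-values set each difference against the spread between these samples, which limma pools in part over genes. The number of arrays limits the precision. The scripts were tested on simulated data.

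The members and lists were chosen with earlier results of these data known. Values in every sample are given for called members whose groups do not overlap, at most the 6 largest changes per tissue, for the 8 smallest F test p-values, and in part for other members; levels by tissue are given for members at least 2 higher on the log2 scale in 1 tissue than the next, and at most 3 genes per list are named. Alternatives were quantile normalization, spike-in scaling (230 spots), normexp with an offset of 16, no filter, the brightest probe of each tissue, averaging all probes of a gene, a single fit over the 24 arrays, a replicate block, the methods' t-test and leaving out samples. Leaving out young WAT replicate 1 and aged lung replicate 1 was added after the data were seen. Sequences are RefSeq promoter windows of GRCm38.p6, and protein sequences are not used here.

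Whether samples of the same number deviated together was checked by correlating their deviations from the group means, which gave r between -0.16 and 0.18, so the numbers were not taken to pair the samples.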

Additional observations from a re-analysis of the deposited data

Results flagged for a closer look

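For 13 of the 35 nuclear receptor genes tested, the change from 10 to 90 weeks differed between tissues by the F test of limma's tissue by age interaction, against 37.6% of all genes. The adjusted p was 4.73e-05 for Vdr, which fell in kidney and was higher in aged liver, where the young samples were not well above background, and 5.84e-05 for Nr2f1, which rose in kidney and liver and fell in lung. It was 0.000498 for Esrra, 0.00691 for Esrrb and 0.00757 for Nr1h3, which were called lower in kidney and in no other tissue. It was 0.00111 for Esr1, higher in liver and lower in kidney, 0.00229 for Nr4a2, lower in liver and higher in kidney, and 0.00582 for Hnf4g, lower in liver and kidney. It was 0.0164 for Rarg and 0.0213 for Pparg, which were called higher in kidney alone, and 0.0246 for Rxrb and 0.0295 for Esr2, called lower in kidney alone; with spike-in scaling the kidney calls of Nr1h3, Esr1, Hnf4g, Esr2 and Rxrb ended, Rxrb turned positive, and the liver and lung calls of Nr2f1 and the liver call of Hnf4g ended. With that scaling Esrra, Nr1h3, Ppard, Rxrb and Esr2 did not pass the F test. It was 0.0221 for Ppard, which was called in no tissue.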

How the results depend on the processing

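In kidney 18 members were lower and 8 higher, and with spike-in scaling 8 were lower. Every other alternative kept these counts within 1.5 times. The fit of all 24 arrays kept 18 of the 26 calls, those of Thra, Rarb, Nr1h4, Nr1i2, Hnf4a, Esr1, Esrrg and Nr0b2 ending. Over all kidney genes that fit moved the share called from 63.2% to 42.8%. Spike-in scaling moved the share of all kidney genes called lower from 42.5% to 13.9%. Rxrb and Nr1h2 reversed in kidney, to 0.0568 and 0.0718 with quantile normalization and to 0.0914 and 0.0693 with spike-in scaling (log2 changes). In liver the 3 higher members became 1 with the replicate block and 1 with the methods' t-test. The 4 lower ones became 2 with quantile normalization, 1 with spike-in scaling, 0 with the replicate block and 1 to 3 without a replicate. Over all liver genes the share called higher fell from 10.6% to 3.86% with the block and 4.77% with the t-test. The share called lower fell from 16.8% to 13.5% with quantile normalization, 3.47% with spike-in scaling and 2.22% with the block. Without a replicate it was 3.51% to 15.7%. In lung no member was higher, with 1 under quantile normalization, 1 under spike-in scaling and 0 to 1 without a replicate. The 3 lower ones in lung became 1 with normexp, 0 without the filter, 0 with the replicate block and 0 with the methods' t-test. They were 0 to 3 without a replicate, and 2 without aged lung replicate 1. Over all lung genes the share called lower fell too, from 2.86% to 1.85% with normexp and 0.289% without the filter. It was 0% with the replicate block, 0.396% with the t-test and at most 0.241% without a young replicate. In WAT no member was called, but 2 were higher and 3 lower in the fit of all 24 arrays. That fit also called 10.8% of all WAT genes higher and 10.4% lower, against 1.99% and 0.566% in the main fit. The F test passed for 13 members, for 8 with spike-in scaling, 8 to 14 without a replicate and 21 without both libraries that held markers of another organ. Of all genes tested it passed for 37.6%, for 17.9% with spike-in scaling, 21% to 39.4% without a replicate and 44.1% without both libraries. The causes were not tested. The tissue differences at 10 weeks, 164 calls over 6 pairs, stayed within 1.5 times.

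The replicate block rests on numbers that do not pair the samples, and it kept 24 of 26 kidney calls, 1 of 7 in liver (Vdr) and 0 of 3 in lung. The share of all genes called moved likewise. It went from 63.2% to 60.7% in kidney, from 27.4% to 6.09% in liver and from 5.57% to 0.0033% in lung. Signal over background limits Vdr in young liver to a bound, and leaves Nr2e3 and Nr0b1 untested.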
